A study of Mus musculus with 10 samples.

Results

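Intronic polyadenylation was compared between 4T07 and 168FARN, 2 cultured mouse mammary tumour cell lines of 1 family, of which the study counts 4T07 as metastatic and 168FARN as non-metastatic. The sites described are all rows of the authors' deposited tables for this pair of lines, 329 sites in 284 genes, out of 2074 distinct sites that the study lists over its 5 comparisons. Each line was measured in 2 libraries of 3'-end sequencing, made from 5 µg of total RNA of untreated cells grown in the same medium. The labels call 4T07 invasive and 168FARN non-invasive and give no genotype or passage. They do not say whether the 2 libraries of a line came from separate cultures. Every p-value here therefore sets a difference only against the scatter of the libraries compared, and part of that scatter may be technical. Each line is 1 line, so the comparison is between 2 lines and not between classes of tumour.

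A polyadenylation signal inside an intron competes with splicing of that intron. When the cleavage machinery wins, the transcript ends early, its downstream exons are lost, and the product can be a shortened protein or an RNA that is degraded. The U1 particle, which marks the start of introns for splicing, also protects transcripts from such premature ends. Because usage is a ratio, it can move through the intronic end, through the end in the last exon, or through both, and these were separated here.

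An intronic polyadenylation (IPA) site is a 3' end that the authors placed in an intron. Its usage is the percentage of IPA reads among the IPA reads and the last-exon reads of the gene in 1 library, and ± gives the SD over 2 libraries. The peak lists held 2753926 and 3106253 reads for 4T07 and 2875561 and 3024906 for 168FARN. Over listed sites with lower usage in 4T07, a 168FARN library had a median of 16 IPA reads and a 4T07 library a median of 6, so many single sites rest on few reads. The replicates of each line differed by more than sampling noise (chi-square of 536.8 over 277 genes for 4T07 and 1079 over 262 genes for 168FARN). In cultured cells measured in bulk, fewer cells making a transcript and less of it per cell cannot be told apart. The epithelial and mesenchymal marker lists could be read only through 3 listed genes, Spint2, Axl and Twist2, and none of 5 leucocyte markers has a listed site.

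Usage was lower in 4T07 at 262 sites in 227 genes and higher at 67 sites in 59 genes. At the 262 sites the median usage was 3.09% in 4T07 and 15.7% in 168FARN, and the median difference was -10.8 percentage points (the latter values over the 260 sites with a read in both 168FARN libraries). At the 67 sites the medians were 5.25% and 0.922%, with a median difference of 4.35 points. The libraries of the lines did not overlap in usage at 260 of the 262 sites and at all 67. Tns4, with 2 IPA reads and 22 last-exon reads over both 168FARN libraries, was an exception, while Ucp2 and Tsnax_1 had 1 library of 168FARN without a read and were judged on the other. These values chose the sites, so they describe the lists and test nothing. Just inside the authors' limit of 0.1, the largest deposited adjusted p was 0.099, and sites outside it are not in these tables.

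**Figure D1:**
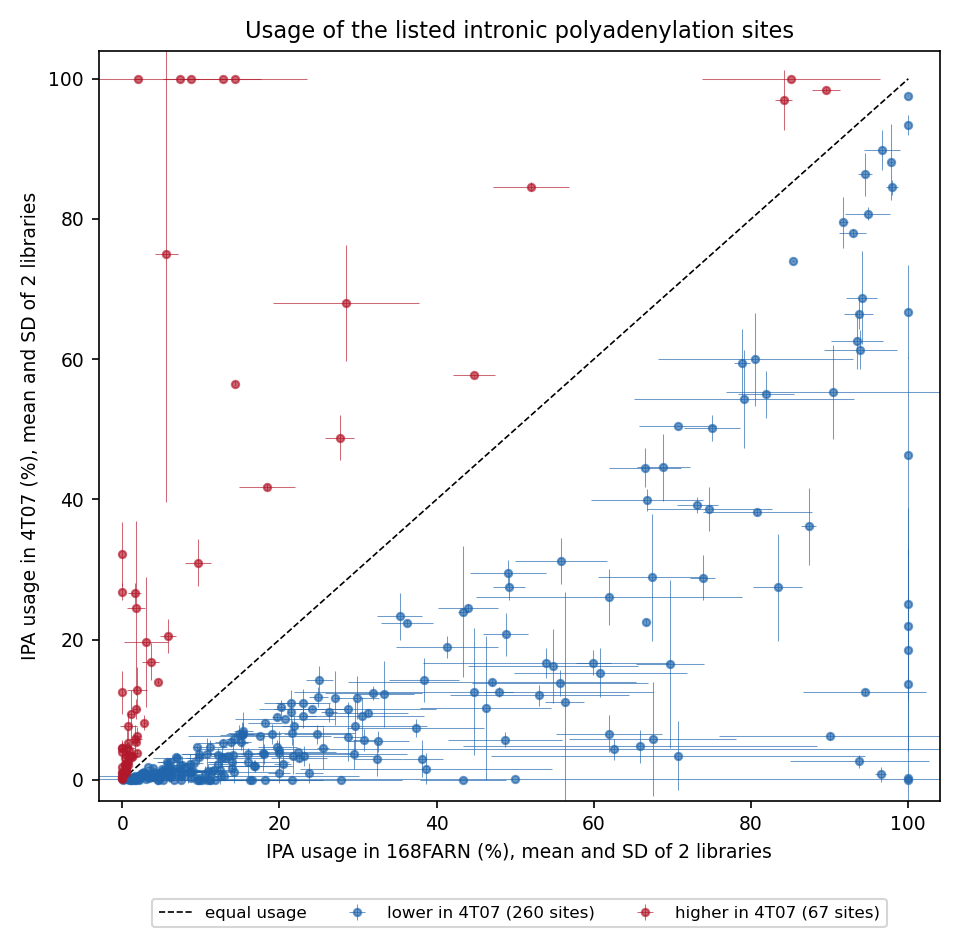
Each point is a listed site, with its usage in 168FARN (%) on the horizontal axis and in 4T07 (%) on the vertical axis, as mean and SD of 2 libraries, and the dashed line marks equal usage. The 260 plotted sites with lower usage lie below the line and spread up to 100% in 168FARN, while most of the 67 with higher usage lie near the origin.

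Many of the listed sites were minor ends, 138 of 329 (41.9%) by this measure. Usage stayed under 10% in both lines at 98 of the 262 lower sites and at 40 of the 67 higher sites. The main 3' end of the gene, among these 2 ends, changed at fewer sites: 38 went from at least 50% in 168FARN to under 50% in 4T07, and 9 went the other way. No IPA read was found in either 4T07 library at 28 lower sites, and none in 168FARN at 12 higher sites. The last exon had no read in 168FARN at 12 lower sites and none in 4T07 at 6 higher sites, so there usage was 100% by the absence of the other end.

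To separate the parts of the ratio, IPA reads and last-exon reads were each tested between the lines in 1 fit with all merged polyadenylation peaks (edgeR's quasi-likelihood test, Benjamini-Hochberg adjusted p under 0.05). Of the features in that fit, 12.3% fell and 14.3% rose in 4T07. These shares include peaks of filtered lists, in which a peak with reads can be missing from a library, while the reads of the listed sites come from the tables. The IPA site itself fell at 117 of the 262 lower sites and rose at 10. Its last exon rose at 127 of them, in 106 of 227 genes, and fell at 20. Among the 67 higher sites the IPA site rose at 30 and fell at 0 in edgeR, also 0 at an unadjusted p under 0.05 and 0 in DESeq2 and limma, and 2 when the listed sites and last exons were fitted alone. The last exon fell at 34 of them, in 28 of 59 genes, and rose at 14. The contrast that put the sites on the list is the same, so these shares are not evidence that the sites stand apart from other peaks. They say at which part of the ratio a change was called. The filter on low reads passed 257 of the 262 lower sites, 64 of the 67 higher sites and all 284 last exons.

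Split by the part that passed the test, 83 lower sites were called at the site only and 103 at the last exon only. A further 15 were called at both in opposite directions, 29 at both in the same direction and 32 at neither. A part without a call was not shown to be unchanged. The higher sites divided into 13 at the site only, 31 at the last exon only, 4 at both in opposite directions, 13 at both in the same direction and 6 in neither. On the scale of log2(signal + 1), where signal is the deposited normalized value, the median change of the lower sites was -1.53 at the site and 0.69 at the last exon. With lines that had no read set to a floor of 3 reads over both libraries, those medians were -1.65 and 0.71. For the higher sites they were 1.48 and -0.64 with the pseudocount, and 1.59 and -0.63 with the floor. The site had the larger change of the 2 parts at 170 of 262 lower sites and at 39 of 67 higher sites, although the last exon, with more reads, was called more often. The median over all merged peaks was 0.04, as the log2 change fitted by edgeR and so not on the scale of log2(signal + 1).

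**Figure D2:**
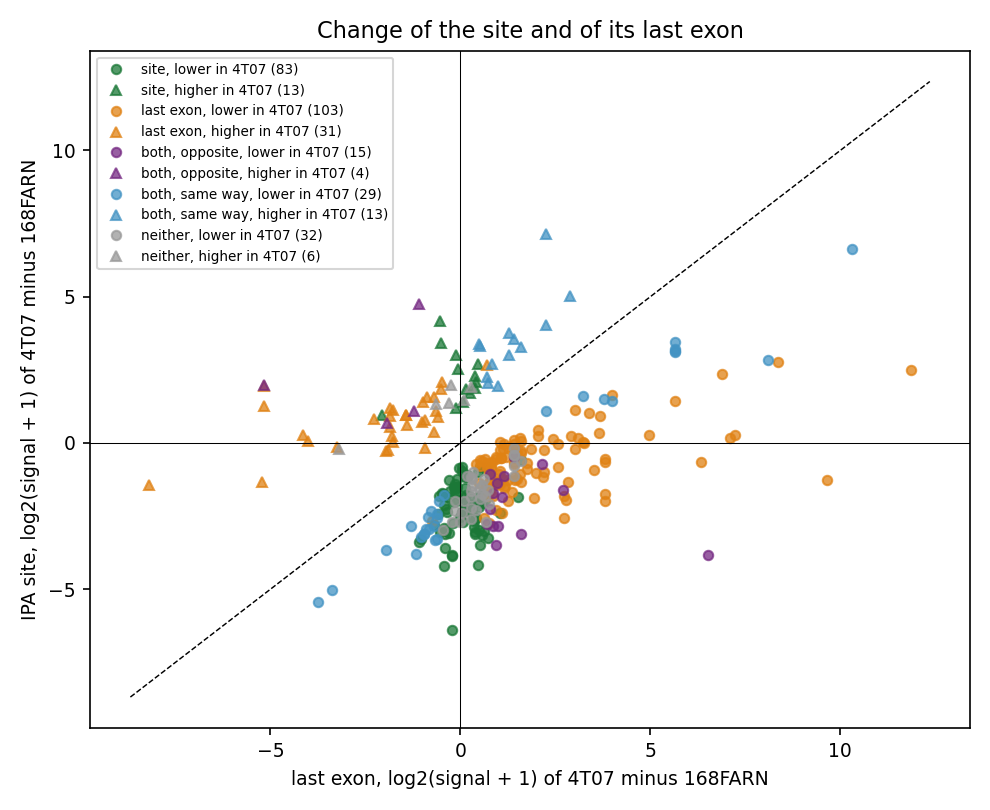
Each point is a listed site, placed by the change of its last exon (horizontal) and of the IPA site (vertical), both as log2(signal + 1) of 4T07 minus 168FARN; colour gives the part that passed the test and the symbol the direction of usage. Sites called at the last exon only spread furthest along the horizontal axis, sites called at the site only stay close to the vertical axis, and the dashed line marks equal change of both.

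The calls depend on having both libraries of each line. When any 1 library was left out, between 25 and 32 of the lower sites fell and between 64 and 98 had a last exon that rose, against 117 and 127 with all 4 libraries. The calls that held in all 4 of these fits were 15 site falls, 11 site rises, 56 last-exon rises and 18 last-exon falls. A call named below is one of these where it is said to hold.

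Gosr2, which encodes a SNARE protein of the Golgi, was without reads at 3 of its 4 sites in 4T07. Its main IPA site at chr11:103544527-103545247 (mm9, minus strand) had 81 and 92 reads in the 168FARN libraries and 0 in both 4T07 libraries. The last exon had 124 and 103 reads in 168FARN and 92 in each 4T07 library. The groups do not overlap at the site, and their normalized last-exon signals do. Usage was 43.3% ± 5.4 in 168FARN, and 0 of 184 reads in 4T07 allows a usage of up to 1.63%. The site was at least 54.8-fold lower in 4T07 (adjusted p = 0.0028, a call that held), while the last exon was not called (log2 change -0.24, SE 0.21, adjusted p = 0.46). Of the others, 2 had 13 and 15 reads, and 11 and 17 reads, in 168FARN and none in 4T07. Summed over its 4 listed sites, Gosr2 usage was 52.5% ± 5.2 in 168FARN and 1.06% ± 1.5 in 4T07.

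Sec23b encodes a subunit of the COPII coat that carries cargo out of the endoplasmic reticulum. Its site at chr2:144386551-144386837 had 47 and 44 reads in 168FARN and 5 and 7 in 4T07. Its last exon had 285 and 274 reads against 322 and 358, so neither part overlaps, and the site differed more. The site fell by 2.85 on the log2 scale (SE 0.33, adjusted p = 0.007, a call that held), and the last exon was not called (adjusted p = 0.11). Papola, the nuclear poly(A) polymerase, had 149 and 174 site reads in 168FARN and 40 and 59 in 4T07. Its site fell by 1.65 (SE 0.18, adjusted p = 0.0061, a call that held) with last-exon reads of 715 and 1137 against 653 and 768, and usage went from 15.3% ± 2.8 to 6.45% ± 0.96. Wdr33, the subunit of the cleavage complex that reads the polyadenylation signal, had usage of 49.2% ± 2.1 in 168FARN and 27.5% ± 2.0 in 4T07, and its site fell by 1.16 (SE 0.21, adjusted p = 0.019).

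Genes of the actin cytoskeleton included changes of 1 part and of both. Tpm1, a tropomyosin that stabilises actin filaments, has 2 neighbouring sites on chr9. The first had 147 and 145 reads in 168FARN and 30 and 26 in 4T07, and the other 72 and 81 against 19 and 22. The last exon, with 1699 and 1975 reads against 1776 and 2116, did not pass the test (adjusted p = 0.28). Both sites fell, by 2.30 (SE 0.23, adjusted p = 0.0047) and 1.83 (SE 0.22, adjusted p = 0.0073), and both calls held, though usage at its highest was only 7.40% ± 0.79. Rock2, a kinase of actomyosin contraction, changed at both parts. Its main site at chr12:16929810-16929888 had 211 and 380 reads in 168FARN and 28 and 48 in 4T07, and its last exon 49 and 64 against 99 and 98. Neither part overlaps between the lines. The site fell by 2.90 (SE 0.33, adjusted p = 0.0066, a call that held) and the last exon rose by 0.88 (SE 0.20, adjusted p = 0.038), so usage was 83.4% ± 3.1 in 168FARN and 27.5% ± 7.7 in 4T07. A second Rock2 site fell with it, and the third, with 12 and 9 reads against 1 and 4, was not called.

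At 103 lower sites only the last exon was called, which does not show that the site was unchanged. Camk1d, a calcium/calmodulin-dependent kinase, had 37 and 33 reads at its IPA site in 168FARN and 39 and 36 in 4T07, which overlap. Its last exon had 0 reads in both 168FARN libraries and 135 and 132 in 4T07. The last exon was at least 93.5-fold higher in 4T07 (adjusted p = 0.0022, a call that held), and usage was 100% against 21.9% ± 0.70. Spint2, an inhibitor of epithelial serine proteases and the only listed gene of the epithelial markers, had 7 and 6 site reads in 168FARN and 2 in each 4T07 library. Its last exon had 0 reads in 168FARN and 730 and 849 in 4T07, at least 549-fold higher (adjusted p = 0.00082, a call that held). The usage change of Spint2 from 100% to 0.254% ± 0.027 therefore rests on 13 IPA reads in 168FARN.

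Adamts10, a metalloprotease of the extracellular matrix, has 2 sites among the largest usage differences. The upstream one had 39 and 44 reads in 168FARN and 24 and 20 in 4T07, and the last exon 6 in each 168FARN library against 36 and 42. The last exon rose by 2.74 (SE 0.33, adjusted p = 0.0075, a call that held), and neither site was called, with adjusted p of 0.11 and 0.96 for the 2 sites. Plaur, the receptor of the protease urokinase, had 9 and 13 site reads in 168FARN against 9 and 4 in 4T07, which meet at 9. Its last exon had 180 and 173 reads against 536 and 607 and rose by 1.75 (SE 0.13, adjusted p = 0.0023, a call that held). Sirt1, a protein deacetylase, had last-exon reads of 2 and 6 against 27 and 29, a rise of 2.85 (SE 0.52, adjusted p = 0.021) that did not hold. Its site had 14 and 7 reads in 168FARN and 2 and 0 in 4T07, a ratio of 10.0 (95% exact counting interval 2.45 to 88.0) that did not pass the test (adjusted p = 0.092).

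**Figure D3:**
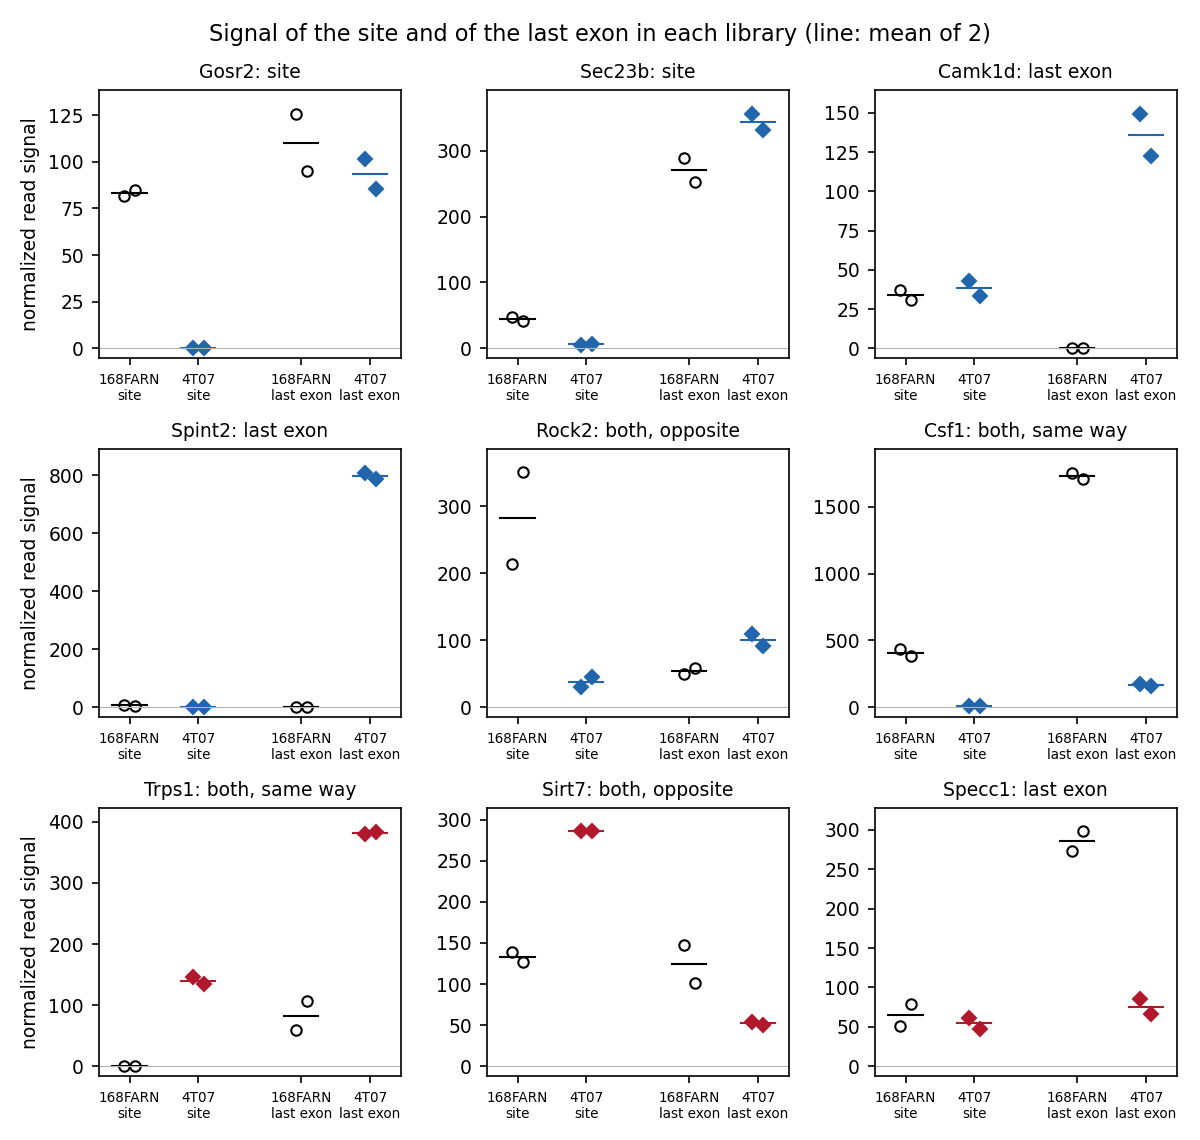
Normalized read signal of the IPA site and of the last exon in each library for 9 sites, with 168FARN as open circles, 4T07 as filled diamonds (blue where usage is lower in 4T07, red where higher) and a line for the mean of 2; the panel title gives the part that passed the test. The site is at 0 in 4T07 for Gosr2, the last exon is at 0 in 168FARN for Camk1d and Spint2, and Csf1 is lower in 4T07 at both parts.

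At 15 lower sites the site fell while the last exon rose, and Dhx40, a DEAH-box RNA helicase, had the largest usage difference among sites with at least 20 reads in every library. Its site had 24 and 32 reads in 168FARN and 0 and 3 in 4T07, and its last exon 1 read in each 168FARN library and 161 and 194 in 4T07. The site ratio of 168FARN to 4T07 was 17.8 (95% exact counting interval 5.78 to 88.9), and the last-exon ratio of 4T07 to 168FARN was 186 (51.2 to 1544). The last-exon call held and the site call did not. Both parts were apart in every library, and usage was 96.5% ± 0.69 in 168FARN and 0.761% ± 1.1 in 4T07. Mtor, the growth-controlling kinase, had 58 and 66 site reads against 24 and 32 and last-exon reads of 66 and 64 against 105 and 108. Its site fell by 1.09 (SE 0.23, adjusted p = 0.029) and its last exon rose by 0.78 (SE 0.18, adjusted p = 0.038), and neither call held.

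Where both parts moved the same way, the whole gene was lower or higher. Csf1, the growth factor of macrophages, had 430 and 412 site reads in 168FARN and 9 and 14 in 4T07. Its last exon had 1730 and 1849 reads against 155 and 172. The site fell by 5.13 (SE 0.20, adjusted p = 0.00082) and the last exon by 3.39 (SE 0.11, adjusted p = 0.0007), and both calls held. Ccnd2, a D-type cyclin of the G1 phase, had the same form, with a site at 216 and 185 reads against 4 and 3 and a last exon at 1953 and 2067 against 148 and 138, and both calls held. Cp, the copper protein ceruloplasmin, went the other way. Its most abundant site had 66 and 112 reads in 168FARN and 731 and 754 in 4T07, and its last exon 1 and 3 against 142 and 130. The site rose by 3.14 (SE 0.25, adjusted p = 0.0028) and the last exon by 6.08 (SE 0.42, adjusted p = 0.0021), both calls that held, and 4 of the 5 Cp sites rose. Summed Cp usage was above 90% in both lines, at 98.8% ± 0.48 in 168FARN and 90.7% ± 1.3 in 4T07.

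Trps1, a zinc finger repressor of transcription, was among the sites with higher usage in 4T07. Its site at chr15:50554556-50556845 had 0 reads in both 168FARN libraries and 132 and 145 in 4T07, and its last exon 59 and 115 against 345 and 413. In 168FARN 0 of 174 reads allows a usage of up to 1.72%, and in 4T07 usage was 26.8% ± 1.2. The site was at least 96.5-fold higher in 4T07 (adjusted p = 0.0019) and the last exon rose by 2.2 (SE 0.29, adjusted p = 0.0094), and both calls held. Abcb10, a mitochondrial ABC transporter, had 1 and 3 site reads in 168FARN and 26 and 31 in 4T07, with last-exon reads of 103 and 134 against 76 and 81. Its site rose by 3.82 (SE 0.52, adjusted p = 0.0098, a call that held). Ddah1, an enzyme that degrades a natural inhibitor of nitric oxide synthase, had 72 and 83 site reads against 148 and 196 and its last exon had 201 and 204 against 170 and 188, with no call (adjusted p = 0.57). The site rose by 1.21 (SE 0.15, adjusted p = 0.0082, a call that held), and usage was 27.6% ± 1.8 in 168FARN and 48.8% ± 3.2 in 4T07.

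Sirt7, a nucleolar deacetylase of the sirtuin family, had higher usage in 4T07 with a call at both parts. Site reads were 138 and 137 in 168FARN and 260 and 309 in 4T07, and last-exon reads 146 and 110 against 49 and 54. The site rose by 1.11 (SE 0.13, adjusted p = 0.0067, a call that held) and the last exon fell by 1.26 (SE 0.24, adjusted p = 0.023), which took usage from 52.0% ± 4.9 to 84.6% ± 0.69. AI506816, named here without a role, had 0 site reads in 168FARN and 20 and 33 in 4T07, and its last exon fell from 126 and 118 reads to 49 and 60.

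At 31 higher sites only the last exon was called. Specc1, a cytospin that links actin and microtubules, had 51 and 86 site reads in 168FARN and 56 and 51 in 4T07, which overlap. Its last exon had 270 and 324 reads against 77 and 72 and fell by 1.92 (SE 0.18, adjusted p = 0.0039, a call that held). Twist2, a transcription factor of the mesenchymal state, had 309 and 293 last-exon reads in 168FARN and 0 in 4T07, at least 191-fold lower (adjusted p = 0.0013, a call that held). With 2 and 1 site reads left in 4T07, its usage of 100% there rests on 3 reads. The last exons of Lpar1, a receptor of lysophosphatidic acid, Ngef, an exchange factor for small GTPases, and Pcgf5, a Polycomb subunit, also fell, by 2.30, 4.10 and 1.45, and these calls held.

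**Figure D4:**
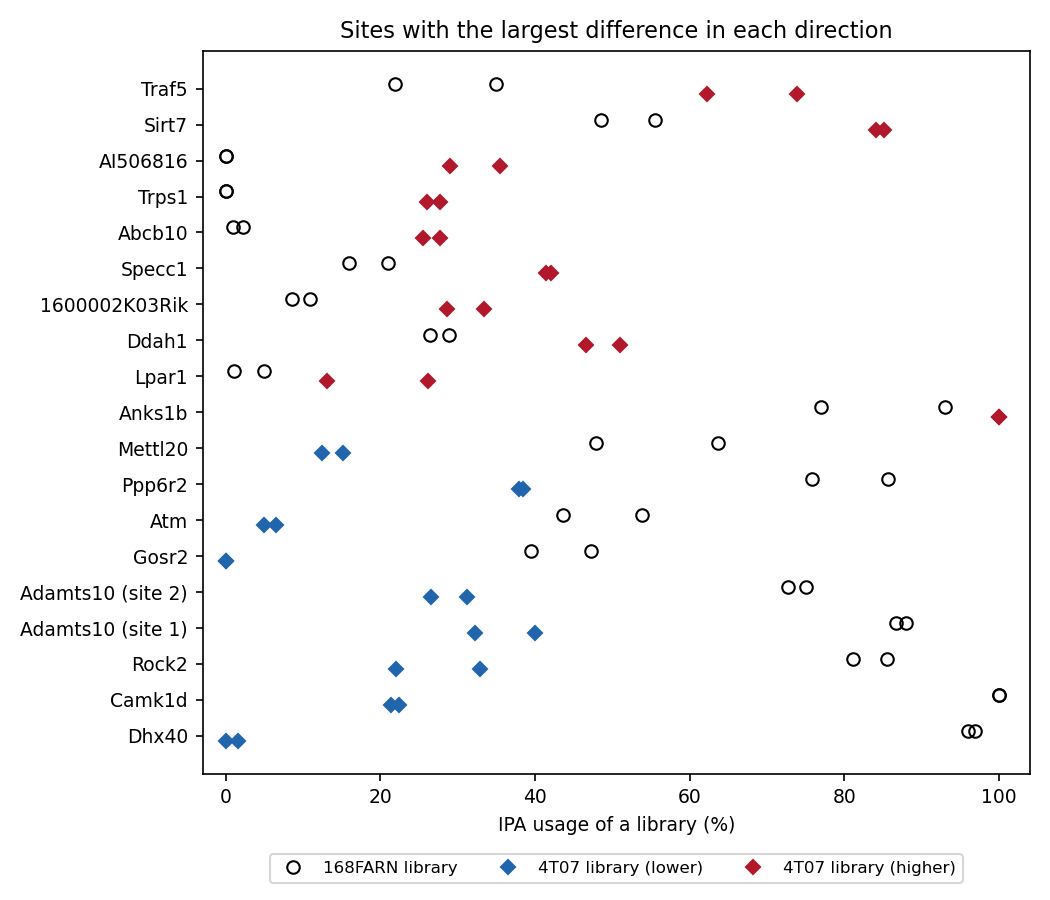
Usage (%) in each of the 4 libraries for the sites of largest mean difference in each direction (9 lower and 10 higher) among sites with at least 20 reads in every library; open circles are 168FARN and filled diamonds 4T07, blue where lower and red where higher. No site shown has overlapping lines, and the differences run from Dhx40 at 96.5% against 0.761% to Anks1b at 85.1% against 100%.

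Several genes had more than 1 listed site, 31 of 284, and these share their last exon, so their sites are not separate observations of it. Ahnak and Cp had 5 sites each, Gosr2 and Uggt1 4, and Rock2, Nav2, Nlrp4e and Sh3glb1 3. Except in Uggt1 and Pcbp2, the sites of a gene had the same direction of usage. Uggt1, the folding sensor of glycoproteins in the endoplasmic reticulum, had 3 lower sites and 1 higher, with usage of at most 1.83% in either line, while its last exon rose from 525 and 581 reads to 1445 and 1738 (log2 change 1.59, SE 0.09, adjusted p = 0.0016, a call that held). Pcbp2, an RNA-binding protein, had 1 site in each direction, neither above 1.02% in a line. The 5 Ahnak sites, several of them broad, lie within 30062 bp, and none passed the test, nor did the last exon, which had 40 and 18 reads in 168FARN and 76 and 64 in 4T07. The identifier of Ahnak names 2 transcripts, so which end its last-exon value covers is uncertain. For Nav2, a neuron navigator, all 3 sites had fewer than 6 reads in every library and the last exon fell from 141 and 128 reads to 30 and 40 (log2 change -1.89, SE 0.20, adjusted p = 0.0052, a call that held).

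The listed genes were grouped by function, and a gene may be in more than 1 group. Over all 329 sites the median usage difference was -7.61 points, 79.6% were lower, 35.6% fell and 12.2% rose, and over the 284 genes 41.5% of last exons rose and 16.5% fell. The counts of each group are a description beside these shares, and no group was shown to depart from them. The list of endoplasmic reticulum, Golgi and vesicle transport genes had the most sites and was also the longest of fixed length (183 genes). It held 17 sites in 10 genes, 4 each in Gosr2 and Uggt1, with 15 lower and 2 higher and a median of -4.32 points. Of these sites 10 fell and 1 rose, against last exons that rose in 2 genes and fell in 1. Beside Gosr2 and Sec23b, the sites of Copg1, a subunit of the COPI coat, and Gorasp2, which stacks Golgi cisternae, fell by 1.88 and 1.1. Their usage was 8.25% ± 0.22 and 3.94% ± 0.030 in 168FARN against 1.75% ± 0.58 and 1.65% ± 0.31 in 4T07. Sites of Rab21, Rab31 and Atf6, the stress sensor of the reticulum, fell as well.

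All 5 sites in 4 genes of DNA damage signalling and repair were lower in 4T07, with a median of -24.1 points. Of these, 4 sites fell and no last exon was called. Atm, the kinase that responds to double-strand breaks, had 14 and 17 site reads in 168FARN and 2 in each 4T07 library, and its site fell by 2.81 (SE 0.50, adjusted p = 0.019). Its usage was 48.7% ± 7.3 against 5.73% ± 1.0. Palb2, which brings Brca2 to breaks, had 87 and 81 site reads against 35 and 40, and fell by 1.1 (SE 0.21, adjusted p = 0.022), and both Exd2 sites fell. For Rad51c, a recombinase paralog, usage of 38.4% ± 4.5 and 14.3% ± 3.1 came with no call at either part. None of these calls held in all 4 fits without a library.

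Genes of RNA processing moved in both directions. Of 3 sites in the cleavage and polyadenylation list, those of Papola and Wdr33 fell and that of Ssu72, a phosphatase of RNA polymerase II, rose, from 0 reads to 7 in each 4T07 library. Among splicing factors and RNA helicases, 3 sites were lower and 5 higher, with a median of 1.29 points, and all 8 passed the test at the site in the direction of usage. The lower ones were in Dhx40, Qk and Prpf31, a protein of the tri-snRNP. The higher ones were in Tra2a (2 sites), a splicing activator, Sfpq, Ddx17 and Snrnp35, a protein of the minor spliceosome. One Tra2a site had 9 and 13 reads in 168FARN and 40 and 42 in 4T07, with usage of 2.82% ± 0.14 and 8.15% ± 1.0. Except in Dhx40 and Ddx17, whose last exons rose, no last exon of this list passed the test.

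Cell cycle genes had 5 lower sites and 0 higher. Tpx2, which builds the spindle and activates Aurora A, had 32 and 33 site reads in 168FARN and 2 and 0 in 4T07, a ratio of 31.0 (95% exact counting interval 8.24 to 261), with its last exon not called (adjusted p = 0.11). The sites of E2f1 and Ccnd2 fell, with a last exon that rose in E2f1 and fell in Ccnd2. At Rbl1, a relative of the retinoblastoma protein, the last exon rose and neither site was called. The 4 sites of Hippo, Wnt and planar polarity genes were all lower, and there the last exons of Wwtr1 (the coactivator TAZ), Csnk1e and Prickle2 rose, while only the site of Tead1 fell. Wwtr1 had 422 and 526 last-exon reads in 168FARN and 1515 and 1775 in 4T07, with 4 and 6 site reads against 3 and 5. The last-exon calls of Wwtr1 and Csnk1e held, and those of Prickle2 and of the Tead1 site did not.

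Chromatin regulators had 8 lower and 5 higher sites, of which 2 fell and 3 rose, and their last exons rose in 6 genes and fell in 3. Smarcad1, a nucleosome remodeller, had site reads of 172 and 135 in 168FARN and 41 and 38 in 4T07. Its site fell by 1.89 (SE 0.26, adjusted p = 0.0096, a call that held), with usage of 93.9% ± 4.6 and 61.4% ± 2.8. The histone methyltransferase Nsd1 had 0 last-exon reads in 168FARN and 20 and 8 in 4T07. Of 9 sites of actin and adhesion genes, 6 were lower and 3 higher, and 4 fell and 1 rose. The list of receptor kinases and kinase signalling, which leaves out other kinases such as Rock2 and Atm, had 5 sites, all lower, of which 4 fell. Axl, a receptor kinase and mesenchymal marker, was among them with both sites under 1% usage, and its last exon, with 3555 and 3342 reads against 2897 and 3115, was not called (adjusted p = 0.45).

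The other groups were small. The ubiquitin list, matched by patterns in gene names and so not limited to enzymes, had 5 lower sites and 1 higher. Solute carriers and ABC transporters had 4 and 2, translation genes 4 and 1, and zinc finger genes 2 and 2. Eif4e2, a cap-binding relative of the initiation factor eIF4E, had its IPA site as the main end in both lines, at 91.7% ± 0.62 in 168FARN and 79.5% ± 3.7 in 4T07. Its site, with 819 and 884 reads against 410 and 505, fell by 0.84 (SE 0.10, adjusted p = 0.0066), which was lost without 1 library. The matrix and protease list held only Plaur and Spint2, both described above.

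**Figure D5:**
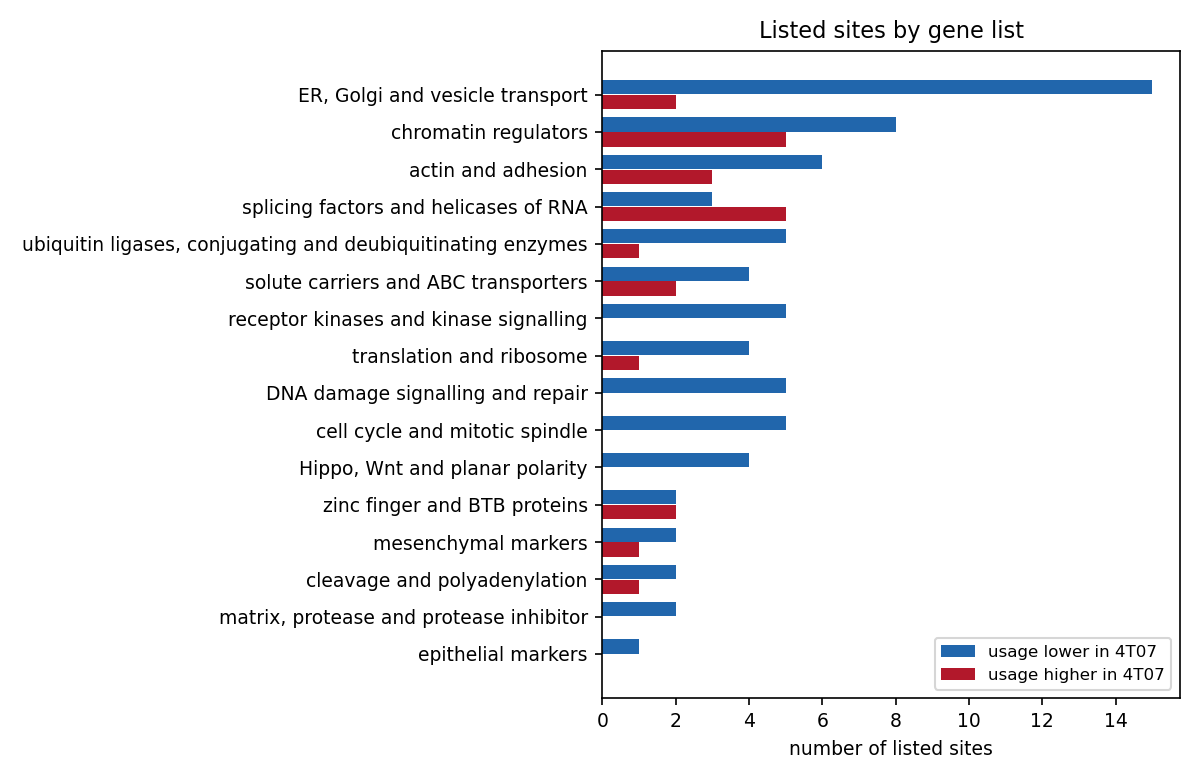
Number of listed sites (horizontal axis) with lower and with higher usage in 4T07 for each functional group; a gene may be in more than 1 group. The group of endoplasmic reticulum, Golgi and vesicle transport genes has 15 lower and 2 higher sites. Splicing factors and helicases are the group with more higher than lower sites, 5 against 3.

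Other libraries of the series allowed the same sites to be read in cells that gave no read to this comparison. In the authors' table for 4T1, the other metastatic line, against 67NR, the other non-metastatic line, 37 of the 329 sites were listed, 11.2% of these sites and 30.3% of that table. Of the 29 sites lower in 4T07, 24 were lower in 4T1 and 5 higher. Of the 8 higher in 4T07, 6 were higher in 4T1 and 2 lower. The shares of all sites of that table that were lower and higher in 4T1 are not given here, so these counts cannot show agreement beyond them. Dhx40 usage was 91.0% ± 6.1 in 67NR and 2.83% ± 4.0 in 4T1, and Sec23b usage 38.1% ± 1.3 and 5.61% ± 1.6. Trps1 usage at the main site was 0.412% ± 0.58 in 67NR and 21.2% ± 7.3 in 4T1. The tables of 4T07 against 67NR and of 4T1 against 168FARN use libraries of this comparison and held 80 and 55 of the sites. There Gosr2 usage at the main site was 0.413% ± 0.58 in 4T1, and Rock2 usage was 83.4% ± 9.9 in 67NR. In the peak lists, which are filtered, the peak at this Gosr2 site had 0 reads in both 67NR libraries. It had 1 and 0 in those of 4T1, so no difference between 4T1 and 67NR was shown there. Ddah1 differed between the metastatic lines, at 48.8% ± 3.2 in 4T07 and 12.2% ± 0.52 in 4T1, beside 27.6% ± 1.8 in 168FARN and 18.0% ± 1.1 in 67NR, and that difference was not tested. Only Tpm1 had a site in all 5 tables.

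When 4T1 cells received a U1 antisense morpholino, 38 of the sites were in the authors' table against 4T1, 11.6% of these sites and 2.43% of that table. Of the 31 lower in 4T07, 24 had lower usage under the morpholino and 7 higher, and all 7 of the sites higher in 4T07 had higher usage under it. The shares of all sites of that table with lower and higher usage are not given here, so these counts cannot show a departure from them. Rock2 usage at its main site was 56.6% ± 21.7 in 4T1 and 3.84% ± 0.057 with the morpholino. Its site reads were 41 and 49 in 4T1 and 34 and 35 with the morpholino. In the last exon they were 16 and 70 in 4T1 and 843 and 887 with it. The peak of the main site was not called (adjusted p = 0.19), and that of a second listed Rock2 site had 3 and 0 reads in the 4T1 lists and 61 and 69 with the morpholino (adjusted p = 0.043, a call lost without either morpholino library). Tra2a had 5 and 24 table reads at its main site in 4T1 and 197 and 196 with the morpholino, with last-exon reads of 415 and 622 against 445 and 591. Both Tpm1 sites were higher, and the second of them went from 0.946% ± 0.23 in 4T1 to 4.20% ± 0.37.

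The peak lists also hold 4T1, 67NR and the morpholino libraries, but they are filtered, and a peak missing from a list can have reads in the tables. Of 12 listed sites with a called peak between 4T1 and 67NR, 6 had 0 in both lists of a line, and all 4 of these that a table also covers had reads there, such as Adcy9, an adenylate cyclase, with 389 and 371 in 4T1. Of 23 called under the morpholino, 8 had such zeros, and all 5 covered by a table had reads. The calls therefore partly measure the filter, and the counts below are a description, not a result about the sites. Between 4T1 and 67NR, on the 10 chromosomes both 67NR lists cover, 6 of 81 tested peaks of lower sites fell and 5 rose, where 3.28% of 11937 merged peaks fell and 3.39% rose. Under the morpholino 10 of 141 tested peaks of lower sites fell and 5 rose, where 7% of 25314 fell and 7.72% rose. For the higher sites, 0 of 17 tested peaks fell and 1 rose between 4T1 and 67NR, and 2 of 39 fell and 6 rose under the morpholino. Rock2, listed in all libraries of 4T1 and 67NR, had 613 and 662 reads in 67NR and 41 and 49 in 4T1 (log2 change -3.42, adjusted p = 0.021), and Eif4e2 had 415 and 329 against 882 and 909 (log2 change 1.68, adjusted p = 0.039). Neither call held, since edgeR made 0 calls among the listed sites without either 4T1 library, and at most 2 without either 67NR library.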

How the data were processed

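The libraries were 3'-end libraries of 4T07 and 168FARN. Software named in the submitters' processing notes was Bowtie2 (2.2.5), SAMtools (1.1), bedtools (2.17.0) and DESeq2 (1.4.5), with the build mm9 and no role for any of them. Per the file headers, the authors' deposited comparison tables give for each site a normalized read signal of the site and of the last exon per library, a log2 fold change and an adjusted p-value. The authors' deposited peak lists give a read count per peak. They are filtered: the list value was below the table value at 65 to 94 sites per library and above it at 0. Introns are the authors' calls, whose rule the sources used here do not give. No genome or annotation of mm9 was used, so no site sequence is shown. Positions are 1-based.

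Dividing each signal by its library's value of 1 read gave whole numbers, within 0.1 read, for 100% of values. Those reads, scaled as the authors scaled them, entered edgeR 4.0.16 (R 4.3.3; quasi-likelihood test, Benjamini-Hochberg adjustment) in 1 fit with peaks merged over the 4 libraries, 24195 features in all. Features needed 10 summed reads, and merged peaks also a read in both libraries of at least 1 line; this second condition was set after seeing the data. Results with an adjusted p under 0.05 are called. With 2 libraries a line an exact permutation test cannot give a p below 0.333, so none is printed. On simulated counts of these 24195 features the fit recovered 63 of 100 changed by 2 log2 units and 83 of 100 changed by 3. The simulated spread was set in advance, the same for every feature, and was not estimated from these libraries. The changed features were drawn from all of them, so these shares are not the recovery at the listed sites. Counting intervals are exact (95%), a count of 0 is read as up to 3, and both cover counting error only. Other tools, in DESeq2 1.42.0 and limma 3.58.1, other scalings and filters, a replicate block and each library left out were tried.

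The sites, gene lists and tests were chosen with earlier results of these data known. Named sites are, per direction, the 10 with the largest usage difference among those with at least 20 reads in every library, the 6 largest deposited log2 fold changes, the 4 lowest deposited adjusted p-values in each class, the 6 highest signals, genes with at least 3 sites or both directions, and members of the gene lists. Tns4, Ucp2, Tsnax_1, Adcy9, Sbno2, Kcnk2 and Rin2 were named after their values were seen. Some items that the rule names are not reported here. Of 284 symbols, 269 are current in RefSeq's table for GRCm38.p6, 12 are synonyms there and 3 did not match; only names were taken from it.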

Additional observations from a re-analysis of the deposited data

Results flagged for a closer look

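At 7 sites every library of 4T1 lay on the opposite side of 67NR from where 4T07 lay relative to 168FARN. The difference between the 2 contrasts was not tested. Sites lower in 4T07 and higher in 4T1 were in 5 genes. Kcnk2, a potassium channel, differed by 41.9 points between 4T1 (84.0% ± 0.16) and 67NR (42.1% ± 2.0), against -27.2 points for 4T07 minus 168FARN. Prickle2 differed by 38.2 points (100% against 61.8% ± 4.2), against -33.3. The values of Sbno2 were 22.2 points (32.8% ± 4.1 against 10.6% ± 1.7) and -14.2. Those of Rin2 were 11.9 points, with no site read in 67NR, and -5.11. Eif4e2 differed by 10.7 points (91.5% ± 1.6 against 80.8% ± 2.9), against -12.2.

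Sites higher in 4T07 and lower in 4T1 were in Abcb10 and Nav2. Abcb10 usage was 0.248% ± 0.35 in 4T1 and 14.0% ± 1.7 in 67NR, a difference of -13.8 points, against 25 points for 4T07 minus 168FARN. One Nav2 site differed by -13.1 points (0.806% ± 1.1 against 13.9% ± 0.39), against 8.29.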

How the results depend on the processing

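Among the sites and last exons named by the rule, no direction of usage and no called direction reversed under the alternatives run. Of the 262 lower sites, 260 kept the lower direction without 168FARN replicate 1, and 260 without 168FARN replicate 2. The rest did not keep it or had no usage value left. All 262 kept it when either 4T07 library was left out, and all 67 higher sites kept theirs throughout. TMM scaling, scaling by peak-list totals, DESeq2 and limma kept all counts of the 4T07 and 168FARN comparison within 1.5 times. The count of lower sites that fell, 117, was 62 with no filter on low reads, 26 with a filter on the sum of reads only (chosen after seeing the data), 190 when listed sites and last exons alone were fitted, and 25 to 32 with 1 library left out. Higher sites that rose, 30, became 19, 10 and, with 1 library left out, 8 to 12. Last exons that rose at lower sites, 127, became 73 with the sum filter and 64 to 98 without 1 library, and last exons that fell at higher sites, 34, became 21 to 28. All site calls, 157, became 87, 40, 255 and 40 to 50 under these 4 kinds of change, and all last-exon calls, 165, became 95 with the sum filter and 82 to 126 without 1 library. With a deposited adjusted p of at most 0.01, 114 lower and 24 higher sites were left. Listed peaks called between 4T1 and 67NR, 12, became 0 with the sum filter and 0 to 2 without 1 library. Those called under the morpholino, 23, became 35 with no filter, 0 with the sum filter and 0 to 36 without 1 library, all in edgeR.

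The labels give replicate numbers but no shared batch, and same-numbered libraries correlated by 0.117 over 603 features in their deviations, with only 2 pairs, so the numbers are not taken as pairs. With the replicate block, the fit called 25 lower sites as fallen, 6 higher sites as risen, 80 last exons of lower sites as risen, 35 sites and 107 last exons in all, and 0 listed peaks in either comparison of 4T1. Depth limits single sites: of lower sites with at least 10 and under 30 IPA reads over both 168FARN libraries, 39 of 107 fell, against 35 of 57 with at least 100.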
